A study of Mus musculus with 48 samples.

Results

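Moxd1, Rbm24 and Calml4 were 3 genes chosen by their response to a high fat diet (HFD) in the liver of mice that lack Pparα in every cell. Among probes called in that comparison whose 8 HFD arrays did not overlap the 8 CTRL arrays, and that carry a gene symbol known to RefSeq, Rbm24 and Calml4 ranked 1 and 2 by increase and Moxd1 ranked 1 by decrease. All probes whose gene name in the scanner files is one of the 3 names were taken, which gave 4 of 56605 probes. The filter on dim probes left 3 of them, 1 per gene, out of 33326 probes tested for 22032 gene names. The 4th, a second Calml4 probe (A_55_P2735950, made to the cDNA AK146656), was well above background on 0 of 48 arrays, with intensities of 25 to 42.5 against a local background of 19 to 38, so it was not tested.

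The study asked how the liver responds to HFD when Pparα, the receptor that switches on fatty acid oxidation genes, is missing from hepatocytes or from the whole body. Liver RNA of 48 male C57BL/6J mice, 20 weeks old, was hybridized to 1 one-colour array per mouse, in 6 groups of 8. The genotypes were wild-type (WT), Pparα hep-/- and Pparα-/-, each on a control diet (CTRL) or on HFD with 60% of fat, for 12 weeks by the labels, where the study's text gives a shorter time. Pparα hep-/- mice carry floxed Pparα and a Cre transgene under the albumin promoter, so that their other liver cells keep the receptor, and Pparα-/- mice carry the germline deletion, so that no cell has it. Both diets were fed to every genotype, and all mice were housed at thermoneutrality. By the study's text, WT mice came from a commercial supplier, and both deletion lines were bred in the authors' own facility. In comparisons with WT mice, the deletion and the colony of origin therefore cannot be told apart.

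Moxd1 encodes a monooxygenase-like protein of the endoplasmic reticulum that resembles dopamine beta-hydroxylase, the copper enzyme that makes noradrenaline. Rbm24 encodes an RNA-binding protein best known as a regulator of splicing in skeletal and cardiac muscle. Calml4 encodes a calmodulin-like light chain that belongs, with the myosin Myo7b and the protocadherins Cdhr2 and Cdhr5, to the complex that links the microvilli of the intestinal brush border. None of the 3 is a standard marker of hepatocytes.

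The sequences behind the measurements are given first. The Moxd1 probe (A_51_P493987, transcript NM_021509) lies at chr10:24022208-24022266 and the Rbm24 probe (A_52_P920158, NM_001081425) at chr13:46526275-46526334, both in mm9 as the scanner files place them. The tested Calml4 probe (A_52_P367760, NM_138304) has its ends at chr9:62719231-62723312, a span of 4082 bases for a probe of 60, so that it is not contiguous in the genome. Its sequence is shown because every Calml4 value below rests on it.
Calml4 probe: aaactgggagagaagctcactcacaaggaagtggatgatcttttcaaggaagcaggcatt

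The 250 bases before each gene's start are shown because all 3 genes were chosen for a response to HFD, from RefSeq in build GRCm38.p6 and on the plus strand. All 3 genes had an entry. Capitals mark matches, on either strand, to the letters AGGTCA (bound by nuclear receptors), to DR1 (AGGTCA repeated after a gap of 1 base, the arrangement that PPARα binds with RXR), TTCNNNGAA (a STAT motif), TATAAA (the TATA box), CCAAT (the CCAAT box), GGGCGG (the GC box) or TGTTTAC (a forkhead motif).
Moxd1, chr10:24223267-24223516: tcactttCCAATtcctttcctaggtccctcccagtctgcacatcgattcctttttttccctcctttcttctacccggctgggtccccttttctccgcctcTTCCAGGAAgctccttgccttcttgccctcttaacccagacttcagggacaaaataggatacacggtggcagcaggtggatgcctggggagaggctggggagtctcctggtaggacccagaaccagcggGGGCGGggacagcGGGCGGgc
Rbm24, chr13:46418050-46418299: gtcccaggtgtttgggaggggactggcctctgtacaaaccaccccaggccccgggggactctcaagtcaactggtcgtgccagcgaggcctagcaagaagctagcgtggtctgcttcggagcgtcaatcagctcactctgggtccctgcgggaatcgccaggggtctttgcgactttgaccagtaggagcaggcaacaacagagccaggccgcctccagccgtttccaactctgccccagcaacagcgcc
Calml4, chr9:62857854-62858103: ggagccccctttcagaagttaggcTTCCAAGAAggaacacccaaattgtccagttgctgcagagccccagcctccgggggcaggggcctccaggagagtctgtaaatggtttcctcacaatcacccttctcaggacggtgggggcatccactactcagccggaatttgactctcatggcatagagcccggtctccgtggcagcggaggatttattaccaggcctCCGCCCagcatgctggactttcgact
AGGTCA and DR1 matched in 0 of these 3 windows, against 14% and 0.0335% of 32851 promoter windows of the same length, where every match to DR1 also holds AGGTCA. TTCNNNGAA matched once in Moxd1 and once in Calml4 and occurs in 7.02% of all windows. GGGCGG matched 2 times in Moxd1 and once, on the minus strand, in Calml4, and occurs in 32.7% of all windows. CCAAT matched once in Moxd1, against 33.8% of all windows. TATAAA (12.4% of all windows) and TGTTTAC (3.17%) matched in 0 of the 3, and the Rbm24 window held no match to any of the 7. A match is a description of these letters, not a site.

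Arrays had a median intensity of 56 to 91 over a local background of 20 to 36. The array weights, which limma estimates from how far an array departs from its group over all probes, ran from 0.189 to 2.53, and the 2 lowest belonged to Pparα hep-/- CTRL mouse 1 (0.189) and WT CTRL mouse 6 (0.208), with the next at 0.343. Ppara itself was measured by 2 probes. On HFD both read lower in Pparα hep-/- livers than in WT ones, by log2 differences of -0.85 ± 0.09 (SE) and -0.68 ± 0.08, and lower still against WT in Pparα-/- mice, at -1.08 ± 0.09 and -1.29 ± 0.08. On CTRL, 1 of the 2 was lower in Pparα hep-/- than in WT mice (-0.42 ± 0.10, adjusted p = 0.000887) and the other was not called (-0.10 ± 0.09, adjusted p = 0.454). Whether the probes lie in the deleted exon is not given in the sources used here, so their remaining signal does not check the deletion.

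**Figure D1:**
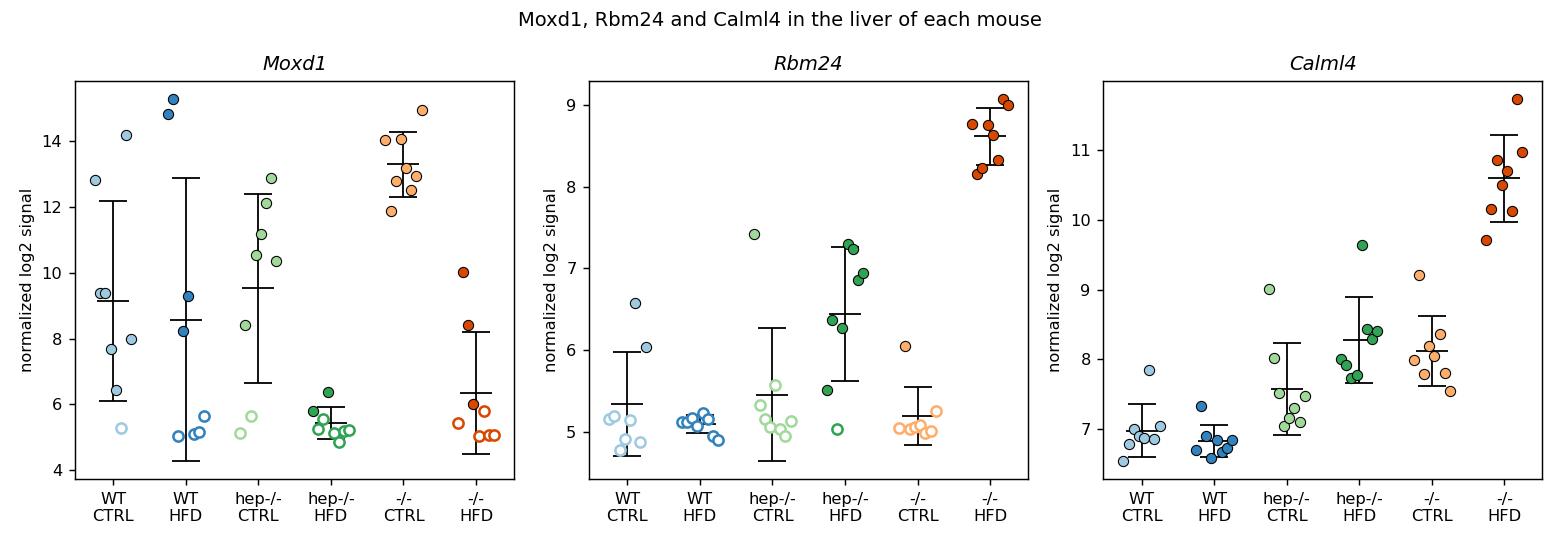
Normalized log2 signal (y axis) of Moxd1, Rbm24 and Calml4 in each of 48 livers, by genotype and diet (x axis, 8 mice a group). Filled points were well above background and open points were not, and bars give the group mean and SD. Rbm24 lies near 5 in WT mice and from 8.16 to 9.08 in Pparα-/- mice on HFD, Calml4 is highest in the same group, and Moxd1 spans from 5.05 to 15.28 within WT mice on HFD.

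Rbm24 was close to background in WT livers on both diets and rose with HFD in Pparα hep-/- livers. On CTRL, its log2 signal in WT mice ran from 4.78 to 6.58 with a median of 5.15, and 2 of 8 arrays were well above background. On HFD, WT mice ran from 4.90 to 5.23 with a median of 5.12, and 0 of 8 were. The 8 WT HFD values lay inside the CTRL range, and the fitted HFD response was -0.13 ± 0.24 (SE, adjusted p = 0.778, 95% interval -0.62 to 0.35).

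In Pparα hep-/- mice on CTRL, Rbm24 ran from 4.94 to 7.42 with a median of 5.14, and 1 of 8 arrays was well above background. On HFD it ran from 5.03 to 7.30 with a median of 6.62, and 7 of 8 were. The groups overlapped: CTRL mouse 1, with the array weight of 0.189, read 7.42 while its 7 group mates read at most 5.57, and HFD mice 1 and 3 read 5.51 and 5.03. The HFD response was 1.47 ± 0.20 (adjusted p = 1.96e-06), where 20.2% of all probes were called. Since 7 of 8 CTRL arrays were not well above background, its size depends on how background is handled, and on Agilent's processed signal it was 3.45. The exact permutation test of the unweighted values gave a difference of 0.99 and p = 0.0343 (n = 8 per group, two-sided, not adjusted). The fitted response was 1.00 within the first wash batch, where it was not called (adjusted p = 0.0971), and 1.90 within the second. In a bulk liver sample, a change in the number of cells that express a gene and a change in the RNA per cell cannot be told apart.

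Rbm24 also differed between the 2 genotypes on HFD but was not called on CTRL. On CTRL, Rbm24 in Pparα hep-/- and WT mice differed by -0.03 ± 0.23 (adjusted p = 0.944, 95% interval -0.50 to 0.44), where 24.7% of probes were called. On HFD it stood 1.57 ± 0.21 higher in the deletion (adjusted p = 3.12e-07), and 7 of 8 Pparα hep-/- mice lay above the highest WT mouse. Since 0 of 8 WT HFD arrays were well above background, this is a bound: with measured means of 6.44 and 5.09, Rbm24 was at least 2.08-fold higher, where the dim group was set per array to the lowest signal well above background. Of all probes, 26.7% were called in this comparison. The HFD response exceeded that of WT mice by 1.60 ± 0.32 (adjusted p = 0.00110), a difference called for 10.4% of probes. That last call was lost with no array weights (1.27, adjusted p = 0.113) and within the first wash batch (1.04, adjusted p = 0.243).

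In Pparα-/- mice, whose diet response chose the gene, Rbm24 went from between 4.99 and 6.05 on CTRL (median 5.05, 1 of 8 arrays well above background) to between 8.16 and 9.08 on HFD (median 8.70, 8 of 8). The fitted difference was 3.51 ± 0.21, given as a description. Of all probes, 24.8% were called in that comparison and 1.44% had groups that did not overlap. The 8 HFD values also lay above every HFD value of WT and of Pparα hep-/- mice (6.93% and 6.55% of all probes did not overlap in these comparisons, which use the arrays that chose the genes). The mean was at least 9.43-fold that of WT mice on HFD, by the bound described above. On CTRL the 3 genotypes had means of 5.33 ± 0.64 (SD), 5.45 ± 0.82 and 5.19 ± 0.36 and overlapped. By group mean, Rbm24 was ordered Pparα-/- HFD, Pparα hep-/- HFD, and then 4 groups from 5.45 to 5.09, and each neighbour from the 2nd place on overlapped the next.

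Calml4 was well above background on 48 of 48 arrays, and like Rbm24 it rose with HFD in Pparα hep-/- livers and was not called in WT ones. In WT mice it ran from 6.53 to 7.84 on CTRL (median 6.88) and from 6.59 to 7.33 on HFD (median 6.78). The ranges overlapped and the response was -0.10 ± 0.25 (adjusted p = 0.851, 95% interval -0.60 to 0.41), where 18.8% of probes were called. In Pparα hep-/- mice it ran from 7.04 to 9.02 on CTRL (median 7.38) and from 7.73 to 9.64 on HFD (median 8.14). The highest CTRL value, 9.02, was again mouse 1, and the next was 8.02.

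The rise of Calml4 with HFD in Pparα hep-/- mice was 1.04 ± 0.21 (adjusted p = 0.000472), with 0.89 and 1.27 within the 2 wash batches. With every array given the same weight the response was 0.73 and was not called (adjusted p = 0.109), the exact permutation test of the unweighted values gave a difference of 0.70 and p = 0.0443 (not adjusted), and with mouse 1 and WT CTRL mouse 6 left out and no weights it was 0.99 (adjusted p = 0.00391). On CTRL, Pparα hep-/- minus WT was 0.47 ± 0.24 (adjusted p = 0.161, 95% interval -0.02 to 0.95), although 8 of 8 Pparα hep-/- mice were above the WT mean. The exact two-sided permutation test of the 16 unweighted values, 1 of 12 such tests, gave a difference of 0.60 and p = 0.0292, not adjusted.

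On HFD, Calml4 in Pparα hep-/- exceeded that in WT mice by 1.60 ± 0.22 (adjusted p = 4.19e-07), a 3.04-fold difference, and the groups did not overlap, as for 1.44% of all probes. Between the diets within Pparα hep-/- mice, 0 of the 3 genes had groups that did not overlap, against 0.591% of all probes. The exact permutation test of Calml4 in Pparα hep-/- against WT mice on HFD gave p = 0.000155 (n = 8 per group, two-sided, not adjusted), the smallest that 12870 splits can give. Its HFD response exceeded that of WT mice by 1.14 ± 0.33 (adjusted p = 0.0212). That last call was lost in 6 of the other settings tried, which are listed in the closing section.

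In Pparα-/- mice Calml4 ran from 7.54 to 9.21 on CTRL (median 8.02) and from 9.72 to 11.74 on HFD (median 10.61), a fitted difference of 2.63 ± 0.22 in the comparison that chose it. The lowest HFD value, 9.72, was above the highest of its CTRL group and above the highest HFD value of WT (7.33) and of Pparα hep-/- mice (9.64), where 1.44%, 6.93% and 6.55% of all probes had groups that did not overlap. These comparisons use the arrays that chose the gene, and nothing is read from them. Calml4 was also high on CTRL in this genotype, where the mean was 8.12 ± 0.51 (SD) against 6.98 ± 0.38 in WT mice, and 5 of 8 values exceeded the highest WT value. By group mean the order was Pparα-/- HFD, Pparα hep-/- HFD, Pparα-/- CTRL, Pparα hep-/- CTRL, WT CTRL and WT HFD, and each neighbour from the 2nd place on overlapped the next. The gene just outside the choice was Cyp39a1, an oxysterol hydroxylase of bile acid synthesis, at 2.62 against 2.63 for Calml4.

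**Figure D2:**
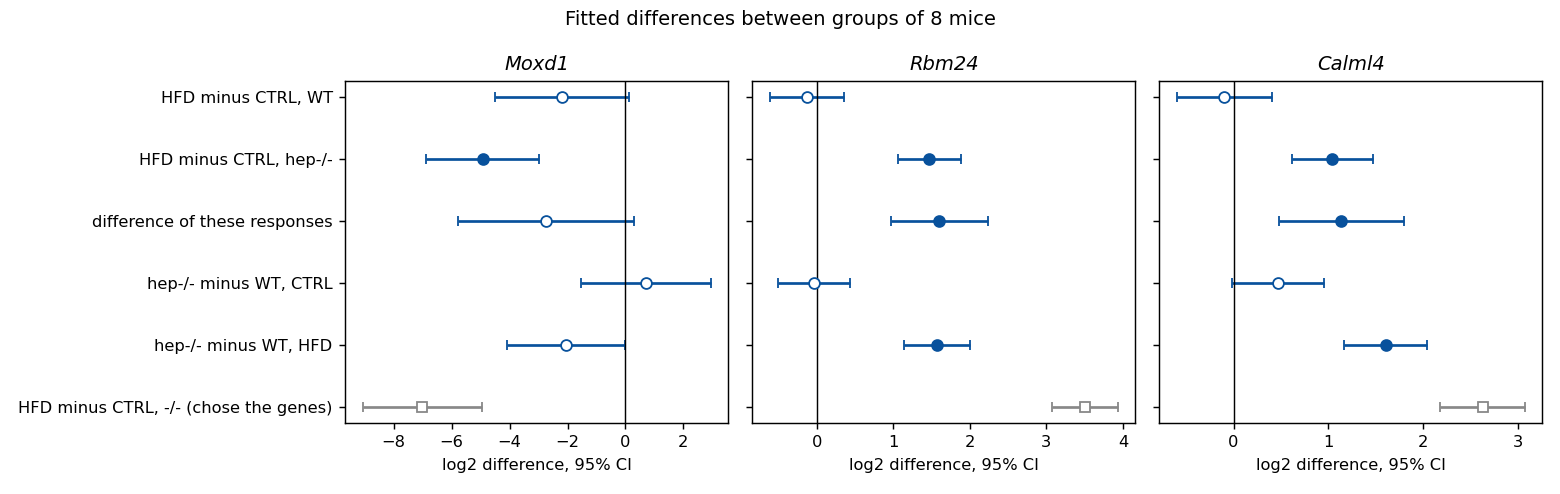
Fitted log2 difference (x axis, with its 95% interval) of Moxd1, Rbm24 and Calml4 for each comparison (y axis), from 8 mice a group. Filled circles passed the threshold of 0.05 on the adjusted p, open circles did not, and the grey squares give the Pparα-/- response that chose the genes, with no test. For Rbm24 and Calml4 the response in Pparα hep-/- mice (1.47 and 1.04) lies above that of WT mice (-0.13 and -0.10). The larger response in Pparα-/- mice (3.51 and 2.63) follows from the choice.

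Moxd1 behaved differently from the other 2 genes: it was among the most variable transcripts from mouse to mouse in most groups, and low in nearly all Pparα hep-/- livers on HFD. In WT mice on CTRL its log2 signal ran from 5.29 to 14.21 with a median of 8.68, a 484-fold range, and 7 of 8 arrays were well above background. On HFD, WT mice ran from 5.05 to 15.28 with a median of 6.94, a 1198-fold range, and 4 of 8 were. In both groups 2 of 8 mice read 10 or more. The ranges overlapped almost fully, and the response was -2.18 ± 1.15 (adjusted p = 0.196, 95% interval -4.49 to 0.14). Its size was poorly fixed: it was -0.58 with no array weights and ran from -2.83 to -1.40 when each mouse was left out in turn.

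The SD of Moxd1 was the largest of 33132 complete probes among WT mice on HFD (4.30, against a median SD of 0.21) and among Pparα hep-/- mice on CTRL (2.88, against 0.20). It ranked 3 among WT mice on CTRL (3.05) and 7 among Pparα-/- mice on HFD (1.85). In Pparα hep-/- mice on HFD and in Pparα-/- mice on CTRL it was 0.48 and 0.99, and 4.14% and 0.519% of probes had a larger SD. Rbm24 stood highest on this scale in Pparα hep-/- mice on HFD, with an SD of 0.82, where 0.573% of probes had a larger one. For Calml4 the SD on HFD was 0.62 in Pparα hep-/- and in Pparα-/- mice, where 1.78% and 1.77% of probes had a larger one.

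In Pparα hep-/- mice Moxd1 ran from 5.14 to 12.88 on CTRL (median 10.45, 6 of 8 arrays well above background) and from 4.86 to 6.39 on HFD (median 5.24, 2 of 8). The 2 low CTRL mice, mouse 1 at 5.14 and mouse 3 at 5.65, fell in the HFD range and the other 6 read 8.41 or more. The HFD response was -4.93 ± 0.97 (adjusted p = 0.000325), with -5.88 and -4.56 within the 2 wash batches (adjusted p = 0.00934 and 0.0608). With no array weights it was -4.11 and not called (adjusted p = 0.0588), and the exact permutation test of the unweighted values gave p = 0.00357 (n = 8 per group, two-sided, not adjusted). Since most HFD arrays were not above background, the size of the decrease is limited by that floor.

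The Moxd1 responses of Pparα hep-/- and WT mice were not shown to differ: their difference was -2.75 ± 1.51 (adjusted p = 0.238, 95% interval -5.79 to 0.28), with -3.91 and -0.62 within the 2 wash batches. Between the 2 genotypes it was 0.71 ± 1.11 on CTRL (adjusted p = 0.701, 95% interval -1.53 to 2.95), with opposite signs in the 2 wash batches (2.82 and -1.55), and -2.04 ± 1.01 on HFD (adjusted p = 0.132). On HFD the group means were 5.43 and 8.57, and 2 WT mice at 14.82 and 15.28 carried most of that gap, since the other 6 ran from 5.05 to 9.31.

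In Pparα-/- mice Moxd1 was high in every CTRL liver, from 11.88 to 14.95 (median 13.07), and ran from 5.04 to 10.04 on HFD (median 5.62, 3 of 8 arrays well above background). The fitted difference in this comparison, which chose the gene, was -7.02 ± 1.02 (SE), given as a description, and its size is limited by the background on HFD. The next probe on that side, Scd1, the desaturase that makes monounsaturated fatty acids, stood at -4.16. The 2 highest HFD mice, 2 and 3, were both of the first wash batch, and the fitted difference was -5.52 in that batch and -8.01 in the second. By group mean the order was Pparα-/- CTRL (13.30), Pparα hep-/- CTRL (9.53), WT CTRL (9.15), WT HFD (8.57), Pparα-/- HFD (6.36) and Pparα hep-/- HFD (5.43), and every neighbouring pair overlapped.

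Within groups, the 3 genes shared their extreme mice on CTRL. In each of the 3 CTRL groups a single mouse was both the highest in Rbm24 and Calml4 and the lowest in Moxd1: WT mouse 6, Pparα hep-/- mouse 1 and Pparα-/- mouse 2. On HFD this held in 0 of 3 groups, although 1 mouse was highest in both Rbm24 and Calml4 in Pparα hep-/- (mouse 5) and in Pparα-/- mice (mouse 7). Of the 3 CTRL mice, 2 were those with the lowest array weights. With both left out and the weights estimated again, the HFD responses in Pparα hep-/- mice were 1.51 for Rbm24, 1.09 for Calml4 and -5.09 for Moxd1, all called.

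Over 48 arrays, Rbm24 and Calml4 correlated with Pearson's r = 0.91 and Spearman's rho = 0.73, and after each group's mean was taken off r was 0.69. Within the groups r was 0.79 and 0.26 in WT mice on CTRL and HFD, 0.89 and 0.68 in Pparα hep-/- mice, and 0.74 and 0.46 in Pparα-/- mice. The CTRL values rest on 1 mouse a group: without the extreme mouse named above, a setting chosen after seeing the data, and with no wash correction, r went from 0.78 to 0.23 in WT, from 0.88 to 0.26 in Pparα hep-/- and from 0.77 to -0.68 in Pparα-/- mice. Of the 8 CTRL arrays, Rbm24 was well above background on 2, 1 and 1 in these groups, and on 0 in WT mice on HFD. Moxd1 ran the other way: within groups r was -0.38 with Rbm24 and -0.31 with Calml4 over all 48 arrays, below 0 in 5 of 6 groups for each and above 0 in WT mice on HFD. Without the extreme CTRL mice, r of Moxd1 with Calml4 was -0.51, -0.60 and -0.46 in the 3 CTRL groups, and with Rbm24 -0.30, -0.23 and 0.82. These are descriptions: the 2 values of a mouse share 1 RNA sample and 1 array.

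**Figure D3:**
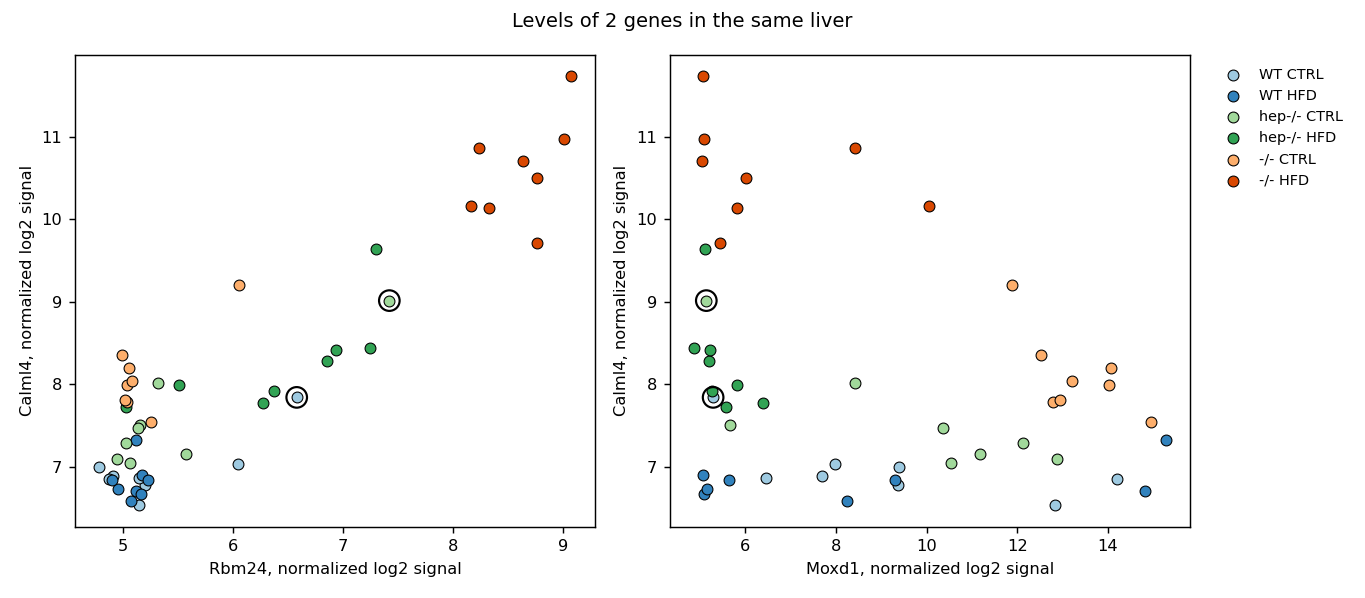
Normalized log2 signal of Calml4 (y axis) against that of Rbm24 (left) and of Moxd1 (right) in the same 48 livers, coloured by group, with rings around the 2 arrays of lowest weight. Both ringed CTRL mice lie among or near the Pparα hep-/- HFD mice in both panels, with Rbm24 at 6.58 and 7.42 and Moxd1 at 5.29 and 5.14.

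Likeness over the arrays was measured over 16352 named genes, as Pearson's r of values corrected for the wash batch, given with no test. Rbm24 and Calml4 were chosen on the same Pparα-/- arrays, which favours a high r: the pair ranked 1 by r, but 102 (from Rbm24) and 481.5 (from Calml4) by Spearman's rho, and 214 and 124 within groups. For Rbm24 the 3 most like were Calml4 (0.91), Tmem45b, a membrane protein (0.87), and Tm4sf4, a tetraspanin-like membrane protein (0.86), and the 3 least like were Adh6-ps1 (-0.83), the olfactory receptor Olfr125 (-0.81) and Cyp27a1, the sterol 27-hydroxylase (-0.79). For Calml4 they were Rbm24 (0.91), Tmem45b (0.90) and Rnf130, a ubiquitin ligase (0.88), against Abhd14a (-0.88), Adh6-ps1 (-0.85) and Mup-ps16 (-0.85). For Moxd1 they were Cadm4, a cell adhesion molecule (0.85), Chid1 (0.83) and 4930474N09Rik (0.83), against Osbpl3, an oxysterol-binding protein (-0.86), Hsd17b13, a lipid droplet enzyme (-0.83), and Cidec, a lipid droplet protein (-0.81). Tmem45b was among the most like for both Rbm24 and Calml4. From CTRL to HFD its mean went from 5.97 to 6.51 in WT and from 6.03 to 7.26 in Pparα hep-/- mice. In Pparα-/- mice it went from 7.17 to 9.41. That increase ranked 6 in the comparison that chose Rbm24 and Calml4, which also favours a high r.

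Groups set much of that likeness, so it was also taken on deviations from group means. These r used no array weights, so that a single mouse can carry them, as it did for Rbm24 with Calml4 on CTRL. Rbm24 was well above background on 19 of 48 arrays, which limits its r further. The 3 most like were then Spats2l (0.81), Inpp5j, a phosphoinositide phosphatase (0.79), and Casp12, a caspase of the endoplasmic reticulum (0.79), for Rbm24. For Calml4 they were Tubb2b, a beta-tubulin (0.81), Gipc2 (0.80) and Serpinb6c (0.79). For Moxd1 they were Hsd17b2, which inactivates sex steroids (0.88), Capn8, a calpain (0.85), and Lgr4, a receptor for R-spondins (0.84).

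The order of likeness by ranks differed: of the 3 genes of highest r, 1 of 3 stayed among the 10 highest by Spearman's rho for each member. In the table the authors deposited, 3 of 3 stayed for each.

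Genes near the members on the chromosome are given as values. The members were chosen as the extremes of the Pparα-/- response, so that a smaller response of the neighbours there was set by the choice. In WT mice Rbm24 (-0.13) and Calml4 (-0.10) lay inside the range of their neighbours (-0.34 to 0.21 and -0.14 to 0.50). Moxd1 (-2.18, not called) lay outside its own (-0.06 to 2.39). In Pparα hep-/- mice each member lay outside. Rbm24 was at 1.47 against -0.33 to 0.11, Calml4 at 1.04 against -0.20 to 0.60, and Moxd1 at -4.93 against -0.28 to 1.64. Of 5 genes tested within 500 kb of Rbm24, 1 was higher and 1 lower on HFD in Pparα-/- mice, with responses from -0.39 to 0.86. The highest was Cap2, an actin regulator 218.4 kb away, at 0.86 ± 0.24 (SE, adjusted p = 0.00687) in Pparα-/- mice, where it was well above background on 5 of 8 CTRL and 8 of 8 HFD arrays. In Pparα hep-/- mice it was so on 0 of 16, and no response is given. In WT mice it was so on 2 of 8 CTRL and 0 of 8 HFD arrays, and no difference from WT mice is given. C78339 fell in all 3 genotypes, by 0.28, 0.33 and 0.39 from WT through Pparα hep-/- to Pparα-/- mice. Kif13a and Nup153 were called in WT mice, at 0.21 and -0.21.

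Near Calml4, 9 genes were tested. Cln6, a membrane protein of the endoplasmic reticulum at -21.8 kb, was higher on HFD in Pparα-/- mice (0.93 ± 0.15, adjusted p = 2.00e-05) and in Pparα hep-/- mice (0.60 ± 0.14, adjusted p = 0.00282), and stood at -0.05 in WT mice. It was raised in Pparα hep-/- relative to WT mice on HFD (1.22 ± 0.15, adjusted p = 4.30e-08) and on CTRL (0.57 ± 0.17, adjusted p = 0.00845). Unlike Calml4, it was not highest in Pparα-/- mice, where it was lower than in Pparα hep-/- mice on CTRL (-0.64 ± 0.16, adjusted p = 0.00152) and stood at -0.30 ± 0.14 on HFD (adjusted p = 0.0990). Its r with Calml4 was 0.52 over the arrays and 0.54 within groups. In GRCm38 the pseudogene Gm10653 overlaps both Cln6 and Calml4, and its own probe, at 0.10 ± 0.04 (adjusted p = 0.0375) in Pparα-/- mice, was called there. Of the others, Itga11, an integrin of fibroblasts, was higher on HFD in Pparα hep-/- mice (0.57), Anp32a in WT mice (0.50), and Fem1b was lower in Pparα-/- mice (-0.15). With no array weights the number called near Calml4 went from 2 to 0 in Pparα hep-/- mice, Cln6 included, and from 3 to 1 in Pparα-/- mice.

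Near Moxd1, 12 genes were tested, of which 3, 2 and 4 were called for HFD in WT, Pparα hep-/- and Pparα-/- mice. Vnn1 is a pantetheinase and a known PPARα target at -397.7 kb. On HFD it was higher in all 3 genotypes, at 2.39, 1.64 and 1.26 in the same order. The study's text, which also gives qPCR, instead names Vnn1 as responsive to HFD only in WT mice. In Pparα-/- mice Vnn1 was well above background on 3 CTRL and 8 HFD arrays, so background limits the size of the 1.26. Vnn3 was higher in WT (0.66) and Pparα-/- mice (0.68), Slc18b1 in WT (0.40) and Pparα-/- mice (0.30), and Stx7, the nearest at -114.4 kb, in Pparα hep-/- (0.27) and Pparα-/- mice (0.35). With no array weights the number called in Pparα hep-/- mice went from 2 to 0, Vnn1 included.

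**Figure D4:**
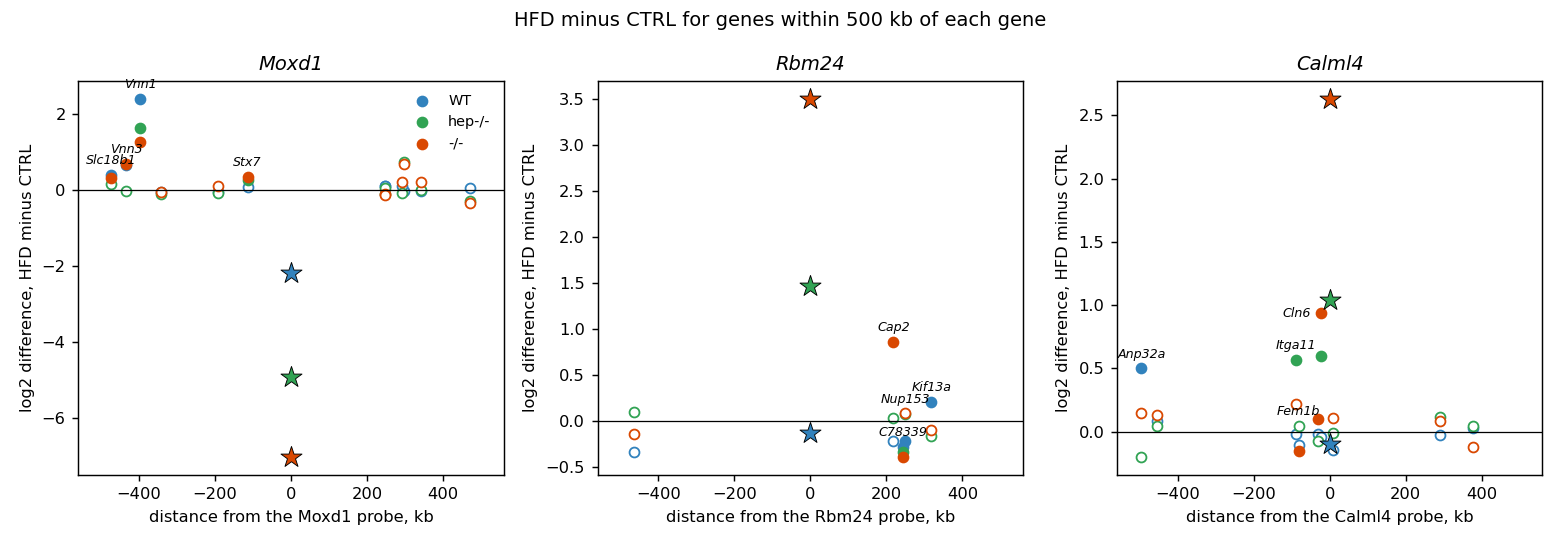
Fitted log2 difference of HFD minus CTRL (y axis) for each gene within 500 kb of Moxd1, Rbm24 or Calml4, against its distance from that gene's probe (x axis, kb), in WT (blue), Pparα hep-/- (green) and Pparα-/- mice (orange). Stars are the 3 genes themselves, and filled circles were called. Vnn1 is the highest neighbour of Moxd1 in each genotype (2.39, 1.64 and 1.26), and Cap2 (0.86) and Cln6 (0.93) are the highest neighbours of Rbm24 and Calml4 in Pparα-/- mice.

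Genes of related function were counted from lists, with 1 probe per gene. Over all genes, 19.5%, 22.5% and 26.4% were called for HFD in WT, Pparα hep-/- and Pparα-/- mice, as were 28.6% for Pparα hep-/- against WT on HFD, with medians no farther from 0 than -0.02. Of 16 splicing regulators tested, 6 were called in WT (2 higher, 4 lower), 5 in Pparα hep-/- (4 higher, 1 lower) and 3 in Pparα-/- mice (3 higher), with list medians of -0.06, 0.05 and 0.07. Rbm38, the closest relative of Rbm24, fell in WT mice (-0.42 ± 0.12, adjusted p = 0.0117) and rose in Pparα hep-/- mice (0.30 ± 0.10, adjusted p = 0.0334), and was at 0.21 ± 0.11 in Pparα-/- mice (adjusted p = 0.162). Celf2 rose on HFD in all 3 genotypes (0.59, 0.53 and 0.41), and between Pparα hep-/- and WT mice on HFD Mbnl3 (1.30) and Mbnl2 (0.47) were higher and Celf2 (-0.61) lower.

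Of 9 tested partners of Calml4 in the microvillar complex and brush border, 2 were called in WT (2 lower), 4 in Pparα hep-/- (1 higher, 3 lower) and 3 in Pparα-/- mice (2 higher, 1 lower). Ush1c had no tested probe, and Myo7b, Cdhr2, Ezr and Myo1a were not called for HFD in any genotype. Cdhr5 fell in all 3 (-0.37, -0.25 and -0.33) and Vil1, villin, in Pparα hep-/- mice (-0.41). Espn, espin, an actin-bundling protein, fell in WT (-0.59 ± 0.21), rose in Pparα hep-/- (0.57 ± 0.18) and Pparα-/- mice (0.52 ± 0.19), and on HFD Pparα hep-/- exceeded WT mice by 1.74 ± 0.19. Eps8, an actin-capping protein, rose in Pparα-/- mice (0.62).

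Among calmodulins and related calcium sensors, Cetn2, a centrin, was higher on HFD in WT mice (0.40), and the calmodulin genes Calm2 (0.29) and Calm3 (0.21) were higher in Pparα-/- mice. Of 6 tested genes of copper monooxygenases and catecholamine synthesis, 0, 3 and 2 were called for HFD in WT, Pparα hep-/- and Pparα-/- mice. Th, tyrosine hydroxylase, fell in Pparα hep-/- (-0.35) and Pparα-/- mice (-0.47), Cyb561, which supplies electrons to such enzymes, fell in Pparα-/- mice (-0.93), and in Pparα hep-/- mice Pam, the peptide-amidating monooxygenase, rose (0.39) and Gch1 fell (-0.20). Dbh and Moxd2, the nearest relatives of Moxd1, had no tested probe. With no array weights the counts called in Pparα hep-/- mice became 1 for splicing regulators, 1 for brush border genes and 0 for copper monooxygenases, and in Pparα-/- mice both of the last lists had 1. The calcium sensors also had 1 in Pparα-/- mice, so that the calls of Calm2 and Calm3 did not both stay.

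Markers of other liver cells moved in the same groups. Of 10 macrophage markers, 0, 4 and 8 were higher on HFD, and 0 lower, from WT through Pparα hep-/- to Pparα-/- mice, and on HFD 7 were raised in Pparα hep-/- relative to WT mice. Of 12 stellate cell markers the counts were 0, 6, 10 and 10. On CTRL the summed macrophage signal ran, in the same order of genotypes, from 18846 to 45394, 33161 to 56660 and 23797 to 54127, and the stellate signal from 21516 to 79029, 32023 to 101790 and 22777 to 70245. On HFD the macrophage signal ran from 14996 to 76627, 36750 to 75577 and 40700 to 83212, and that of stellate markers from 19768 to 107790, 48124 to 81468 and 55312 to 82433. Gpnmb and Trem2, macrophage genes of lipid-laden tissue, rose by 2.99 and 1.81 in Pparα hep-/- mice, and Col1a1 by 2.18. Within groups the mean of the macrophage list had r = 0.40 with Rbm24, 0.56 with Calml4 and -0.23 with Moxd1, and that of the stellate list 0.53, 0.51 and -0.60. With no array weights the macrophage counts for HFD became 0 in Pparα hep-/- and 5 in Pparα-/- mice and the stellate counts 1 and 4, and the counts of Pparα hep-/- against WT mice on HFD fell to 3 and 4. Their part in the results was not tested.

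Of 15 muscle markers, 9 were tested and 0 were called for HFD in any genotype, and Ckm, Acta1, Myh1, Myh2, Myh7 and Actn3 had no tested probe. One array stood apart on this list, that of WT CTRL mouse 8, with a summed signal of 6755 where the other 47 reached at most 861, and its Rbm24 was 6.04. Without it the Rbm24 response of WT mice was -0.06 (adjusted p = 0.900). Of 10 enterocyte markers 4 were tested, and Lct, Sis, Alpi, Cdx1, Cdx2 and Slc5a1 had no tested probe, and 2, 2 and 3 of the 4 were higher on HFD in WT, Pparα hep-/- and Pparα-/- mice, where with no array weights the first 2 counts became 1 and 0. Of 15 genes that are more abundant in male than in female liver, 12 were lower on HFD in Pparα-/- mice, 5 in Pparα hep-/- and 2 in WT mice (with 1 higher). The count in Pparα hep-/- mice became 2 with no array weights, and that of Pparα hep-/- against WT mice on HFD went from 7 to 0. Within groups the mean of the list had r = -0.73 with Rbm24, -0.59 with Calml4 and 0.63 with Moxd1. That of the hepatocyte list had r = -0.28, -0.39 and 0.47, the array's median intensity 0.45, 0.43 and -0.37, and the array weight -0.47, -0.25 and 0.0044 in the same order.

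The remaining lists are given as counts for HFD in WT, Pparα hep-/- and Pparα-/- mice, out of the genes with a tested probe. Tested were 11 of 16 genes of the female list and 9 of 10 cholangiocyte markers. Of lymphocyte, adipocyte and acinar markers, 8, 8 and 5 of 10 were tested. Of 25 fatty acid oxidation targets of PPARα, 19, 14 and 14 were higher and 0, 1 and 0 lower, and with no array weights the 15 called in Pparα hep-/- mice became 7. Of 11 genes more abundant in female liver, 2, 3 and 3 were higher and 1, 1 and 0 lower. Of 10 hepatocyte markers, 0, 0 and 1 were higher and 2, 2 and 2 lower. Of 9 cholangiocyte markers, 0, 1 and 0 were higher and 0, 0 and 1 lower. Of 10 endothelial markers, 0, 2 and 2 were higher and 0 lower. Of 8 lymphocyte markers, 0 were higher and 0, 1 and 1 lower. Of 8 adipocyte markers, 3, 3 and 3 were higher and 1, 0 and 0 lower. Of 5 pancreas acinar markers, 0 were higher and 0, 2 and 2 lower. These counts moved with no array weights. In WT mice the number called went from 4 to 1 for adipocyte and from 2 to 1 for hepatocyte markers, and from 0 to 1 for endothelial markers. In Pparα hep-/- mice it went from 3 to 0 for adipocyte, from 2 to 0 for hepatocyte, from 1 to 0 for cholangiocyte and for lymphocyte, and from 2 to 1 for endothelial and for acinar markers. In Pparα-/- mice it went from 3 to 1 for hepatocyte, from 1 to 0 for cholangiocyte and from 2 to 1 for acinar markers.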

How the data were processed

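Liver RNA of 48 mice was measured on one-colour Agilent arrays, 1 per mouse, over 6 slides and 2 wash batches. The authors deposited scanner files (Feature Extraction 10.10.1.1 per the file headers) with the median intensity of each spot, and a normalized log2 table, used here as a check (r of 0.99997 or more per array with the values below) and as an alternative. The members and the gene lists were chosen with earlier results of these data known.

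Outlier spots were left out, spots of a probe averaged on the log2 scale, and a probe kept if 4 or more of the 8 arrays of some group had it well above background, followed by quantile normalization. limma 3.58.1 in R 4.3.3 fitted group means and the wash batch with array weights, and the 195 missing values were left out of their probes' fits. P-values were adjusted by the Benjamini-Hochberg method over all probes of a comparison and called at 0.05. They measure the spread between mice. The scripts were tested on simulated data. For the 3 genes, comparisons that use Pparα-/- arrays carry no test. Exact permutation tests were two-sided.

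Named besides the 3 genes were Ppara, the gene just outside the choice on each side, the 3 genes of highest and lowest correlation, the 3 of highest correlation within groups, at most 4 called neighbours per gene within 500 kb, and at most 4 called genes per list, by size. Gm10653 was named for its overlap, and untested or uncalled list genes to account for some of the lists. Alternatives changed the weights, the wash term, the slide as a block, the background, the normalization, the filter and the arrays used. The number of arrays limits the precision. Part of the list of calcium sensors is not reported here.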

Additional observations from a re-analysis of the deposited data

Results flagged for a closer look

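In 5 of 18 groups (3 genes in 6 groups of 8 mice) the gap below the highest mouse passed the rule for an outlier, given as a description. The rule's rate of about 1 in 20 holds for independent samples. Here the genes share mice and arrays, and the Pparα-/- arrays chose the genes. Both flagged Rbm24 groups had 1 of 8 arrays well above background, so that the background set most of their values. The gap to the next mouse, as a share of the group's range, was 0.745 for Rbm24 in Pparα hep-/- mice on CTRL (mouse 1, 7.42 against 5.57) and 0.751 in Pparα-/- mice on CTRL (mouse 2, 6.05 against 5.25). For Calml4 it was 0.616 in WT mice on CTRL (mouse 6, 7.84 against 7.04), 0.580 in WT mice on HFD (mouse 2, 7.33 against 6.90) and 0.627 in Pparα hep-/- mice on HFD (mouse 5, 9.64 against 8.44).

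The HFD response differed between Pparα hep-/- and WT mice by limma's interaction term for the following genes, given as the log2 response of Pparα hep-/- minus that of WT mice. It was 1.60 for Rbm24 (adjusted p = 0.00110) and 1.14 for Calml4 (adjusted p = 0.0212). It was -0.42 and -0.58 for the 2 Ppara probes (adjusted p = 0.0290 and 0.00234). Among the neighbours it was -0.68 for Vnn3, -0.70 for Anp32a, -0.37 for Kif13a and 0.29 for Nup153. Among the listed genes it was 2.97 for Gpnmb, 1.15 for Espn, 0.72 for Rbm38, 0.38 for Mbnl2, -0.52 for Th and -0.40 for Cetn2, with adjusted p-values of the neighbours and listed genes from 0.00229 to 0.0339.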

How the results depend on the processing

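Of the values recomputed for the 3 genes' comparisons under other settings, 585 kept their direction and their side of the threshold, 12 lost a call, 1 gained one, 4 with no test moved and 13 changed sign, each for a difference not called in either setting. Rbm24 in Pparα hep-/- minus WT mice on CTRL (-0.03) became 0.10 with no array weights, 0.077 with no wash term, 0.036 in the authors' deposited table, 0.029 with no filter, 0.065 and 0.025 within the first and second wash batch, 0.12 in the permutation test, and from -0.094 to 0.041 with each mouse left out. Within the second wash batch, the Calml4 response in WT mice was 0.059 and Moxd1 in Pparα hep-/- minus WT mice on CTRL -1.55. With no array weights, calls were lost for the HFD response in Pparα hep-/- mice of Calml4 (0.73, adjusted p = 0.109) and Moxd1 (-4.11, adjusted p = 0.0588) and for its difference from WT mice of Rbm24 (1.27, adjusted p = 0.113) and Calml4 (0.88, adjusted p = 0.259). That setting took the calls over all probes from 6733 to 1270 for the response in Pparα hep-/- mice and from 3472 to 298 for its difference from WT mice. It moved 45 of 85 list counts and 5 of 15 counts of neighbours by over 1.5 times. The Calml4 difference of responses was also not called with no wash term (0.94, adjusted p = 0.0782), with no filter on dim probes (1.08, adjusted p = 0.0783), within the first and second wash batch (1.11 and 1.21, adjusted p = 0.0513 and 0.340), and without the 2 arrays of lowest weight and no weights (1.00, adjusted p = 0.0665), a setting chosen after seeing the data. Within the first wash batch, Rbm24 lost the response in Pparα hep-/- mice (1.00, adjusted p = 0.0971) and its difference from WT mice (1.04, adjusted p = 0.243), and Moxd1 in Pparα-/- mice moved to -5.52. Within the second, Moxd1 lost the response in Pparα hep-/- mice (-4.56, adjusted p = 0.0608). On Agilent's processed signal the Rbm24 response in Pparα hep-/- mice was 3.45, its difference from WT mice 4.02 and the genotype difference on HFD 3.64, the Moxd1 response in Pparα hep-/- mice was -7.45, all called, and the described Pparα-/- responses were 6.04 for Rbm24 and -9.01 for Moxd1, and after normexp that of Rbm24 was 2.80. By the exact permutation test, not adjusted and added after seeing the data, Calml4 in Pparα hep-/- minus WT mice on CTRL passed the threshold (0.60, p = 0.0292). The cause of these changes was not tested. Leaving out each mouse in turn changed 0 calls. Deviations of same-numbered mice had r from -0.446 to 0.694, over 0.1 in at most 4 of 8 pairs. The numbers were not taken as pairs, although so few pairs cannot settle it. With the replicate number as a block, the responses in Pparα hep-/- mice were 1.13 for Calml4 and -5.30 for Moxd1, that of Rbm24 exceeded WT mice by 1.66, and no call changed. Signals near background, as of Rbm24 in WT and Moxd1 in most HFD livers, limit how well the size of a difference is known.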
